A study of Mus musculus with 6 samples.

Results

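The cells described here are wild-type (WT) TEa cells, CD4+ T cells that carry a transgenic T cell receptor, as they stood 6 days after a heart graft. They are the 2 arrays labelled as WT and treated with rat IgG, out of 6 arrays in the series. A gene belonged to the expressed set when at least 1 of its probes carried the scanner software's flag for a spot well above its local background on both arrays. That held for 10437 of 22815 named genes, or 45.7%, and this share is the background against which every count of family members below is read. The members counted are mostly protein-coding genes, of which 50.2% were detected, so that share is the closer background. No group is compared, so no result carries a test.

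The donor cells came from C57BL/6 TEa mice and were sorted as Vα2+ Vβ6+ CD45.2+ CD4+ cells. On day -1, 5000000 of them were given to B6.SJL recipients, whose own blood cells carry CD45.1. A Balb/c heart was transplanted on day 0, and the transferred CD45.2+ cells were sorted back from the recipients' spleens on day 6. All 3 groups of the series share the transfer, the graft and the sort. The other 2 groups received cells labelled Irf4 KO, with rat IgG or with checkpoint blockade. The rat IgG of the WT recipients is named without an amount. Each array comes from an independent experiment, and array 2 is the one labelled as the repeat. The number of recipients behind an array is not given in the sources used here. The transferred cells come from mice with a transgenic receptor, but whether every cell sorted on day 6 carried it was not tested. The profile is that of cells sorted from the spleen and says nothing of cells inside the graft.

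TEa cells see a peptide of a donor class II molecule presented on the recipient's own class II molecule, which is the indirect route of graft recognition. A CD4+ T cell that meets its antigen divides, raises its uptake and use of nutrients, and takes up one or more helper programmes, each led by a transcription factor. T-bet (Tbx21) leads the type 1 programme, Gata3 the type 2, Bcl6 the follicular helper and Foxp3 the regulatory programme. Chemokine receptors and adhesion molecules decide where the cell goes, and cytokines are what it secretes.

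Both arrays were read without a saturated spot. Of all spots, 40.1% on array 1 and 42.9% on array 2 were well above background. Median processed signals, which are background-subtracted intensities, were 8.85 and 10.8. The 308 negative control spots had medians of 4.53 and 4.07, and 10 of them on array 1 and 3 on array 2 were called well above background, none of them on both. The 99th percentile of the negative controls' processed signal was 467 on array 1, against 19.8 on array 2 and 12.9 to 42.0 on the other 4 arrays. A gene counted as detected only with a call on both arrays, a rule that was set without regard to these control values. Another 1412 genes passed on a single array: 532 on array 1, 866 on array 2, and 14 through different probes. On neither array stood 10966 genes, or 48.1%. Of protein-coding genes 50.2% were detected (10017 of 19937), and of long non-coding RNA genes 12% (309 of 2575).

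Signals of the detected genes ran from a mean of 20.2 to 322100, with a median of 501 and a 90th percentile of 5230. Array 2 was brighter by 1.35-fold (log2 0.43) before scaling. Across the 10437 detected genes, which are not independent replicates, log2 signals on the arrays had a Pearson r of 0.981 and a Spearman rho of 0.982. After scaling, the median absolute log2 difference was 0.21, and it fell from 0.33 in the dimmest quartile of genes to 0.17 in the brightest. A signal also depends on its probe. Among 3553 genes with at least 2 detected probes, the brightest and dimmest probe lay a median of 4.81-fold apart. The order of signals below is thus an order of probes. Ranks, shares of summed signal and words such as brightest describe probe signals and do not compare amounts of RNA between genes. A missing call depends on the probe too. Of 5049 detected genes with at least 2 probes, 1904 were detected by some probes and not by others. Many genes named below as on neither array have 1 probe, among them Cdk6, Havcr2 and Il10. Whether the transcript of such a gene was absent from the cells was not tested.

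**Figure D1:**
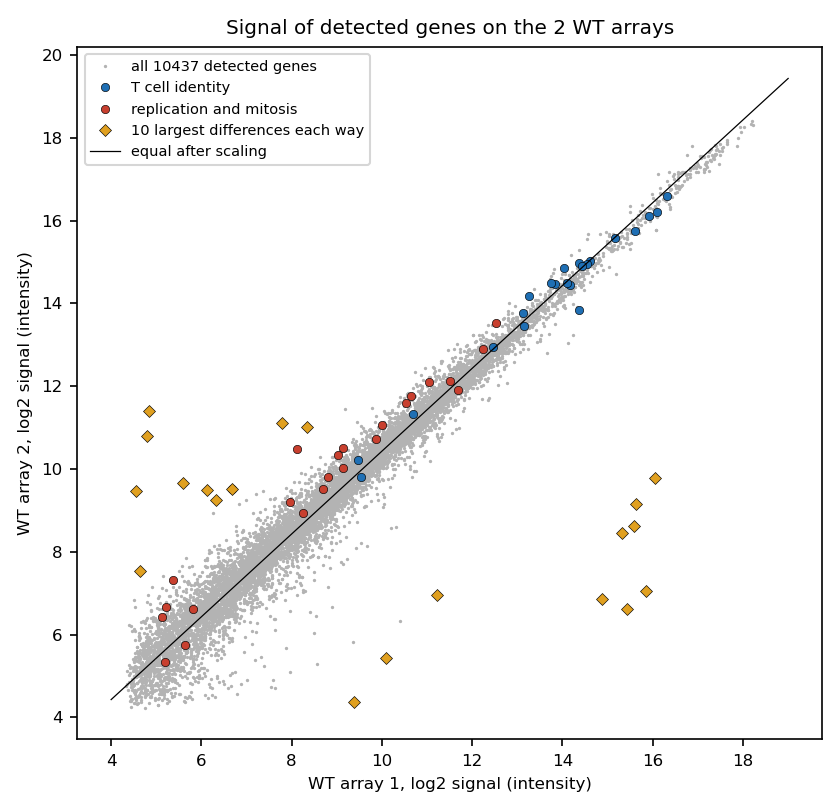
Log2 signal (intensity) of each of the 10437 detected genes on WT array 1 (horizontal) and WT array 2 (vertical), with T cell identity genes in blue, replication and mitosis genes in red and the 10 largest scaled differences in each direction as diamonds. The line marks equal signal after scaling by the 1.35-fold offset; the identity genes lie along it, and 21 of 24 replication and mitosis genes lie above it.

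The brightest signals belonged to the machinery of translation. Ribosomal protein genes filled 59 of the 100 brightest places and 23 of the first 30. The 88 detected ones held 28.8% of the summed signal of all detected genes on array 1 and 27.6% on array 2. Fau, which encodes a ubiquitin-like protein fused to ribosomal protein S30, came first with 301370 and 344168. Rps18 read 297633 and 330895, Rpl37a 264887 and 315960, and Rps16 251950 and 313163. Each of these 4 was brighter on array 2, by less than the 1.35-fold offset of the whole array. Rn28s1, a ribosomal RNA gene, read 305304 and 325171.

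Transcripts of the translation apparatus are known for a stretch of pyrimidines that starts with C at the 5′ end, the TOP motif, through which growth signals set their translation. The bases around the annotated start are shown to see how far the annotated starts carry it. The genes are the 8 brightest ribosomal ones that have a single entry in the RefSeq promoter table. Each sequence is 30 bases, 5′ to 3′ on the gene's strand, build GRCm38.p6, and the capitals mark the first 5 bases from the annotated start:
Fau, chr19:6057932-6057961, plus strand: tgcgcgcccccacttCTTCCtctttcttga
Rps18, chr17:33955651-33955680, minus strand: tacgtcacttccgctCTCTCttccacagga
Rpl37a, chr1:72711245-72711274, plus strand: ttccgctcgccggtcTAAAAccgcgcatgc
Rps16, chr7:28350674-28350703, plus strand: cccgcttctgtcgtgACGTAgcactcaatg
Rps10, chr17:27635230-27635259, minus strand: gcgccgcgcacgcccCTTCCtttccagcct
Rps27, chr3:90213634-90213663, minus strand: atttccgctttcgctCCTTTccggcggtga
Rpl41, chr10:128549154-128549183, minus strand: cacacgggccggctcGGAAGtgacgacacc
Rplp2, chr7:141447636-141447665, plus strand: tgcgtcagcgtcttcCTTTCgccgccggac

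In 5 of these 8 the annotated start is a C followed by 4 pyrimidines. In the larger sets, which include genes with several entries, a gene counted when any of its entries matched. Over all ribosomal protein genes among the 100 brightest the share was 27.3% (12 of 44 with an entry), against 3.23% (1 of 31) of the other bright genes. It was 3.13% for detected genes and 3.01% for all 27025 genes in the table. An annotated start can lie some bases away from the one used, and the exact start in these cells was not measured. The letters CCGGAAG, the core bound by Ets-family factors, were searched on both strands of the 300-base window that runs from 250 bases before the start to 50 after it. They occurred in 38.6% of the bright ribosomal protein genes but 9.68% of the other bright genes. The share was 22.0% of detected genes, 4.20% of genes on neither array and 9.93% of all genes in the table. TATAAA, searched the same way, occurred in 9.05% of detected genes, 19.7% of genes on neither array and 15.7% of all genes in the table. Among the bright genes, 6.82% of ribosomal protein genes and 25.8% of the others held TATAAA. Of the interleukin genes on neither array, 8 of 18 with an entry (44.4%) held it. The ratio of observed to expected CpG had a median of 0.77 over detected genes and 0.29 over genes on neither array. The 15 T cell identity genes with an entry, all of them detected, had a median of 0.25. Of these, 2 held TATAAA and none held CCGGAAG.

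Besides ribosomal protein genes, the 100 brightest held 41 others, some of them genes of the cytoskeleton and the lymphocyte surface. Most of the 41 are not named here. Tpt1, a growth-associated protein whose mRNA also carries a TOP motif, read 253703 and 290474, and Actb (β-actin) 240944 and 261924. Tmsb4x, which encodes the actin-sequestering thymosin β4, read 143913 and 155368. Cd52, a small glycosylphosphatidylinositol-anchored protein of lymphocytes, read 142998 and 153279. H2-K1, a class I molecule, read 96961 and 115218, and Ifi27l2a, an interferon-induced gene, 155684 and 151036. In each of these the arrays lay close together. Rack1, a scaffold on the small ribosomal subunit, read 172987 and 199693.

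Several names near the top rest on a single probe. Exosc2, a subunit of the RNA exosome, read 155625 and 207113, and Zfp628 180960 and 170050. Glrx2, a mitochondrial glutaredoxin, read 157633 and 214748 by its brightest probe but 2171 and 2583 by the other. Slc10a1 read 84391 and 147161 by 1 detected probe of 2, and Sprr2a2 115440 and 143683 by 1 of 3. Of the 51 genes among the 100 brightest with at least 2 probes, 20 had probes more than 8-fold apart. That was so for 6 of 31 ribosomal protein genes and 14 of the 20 others. The 8 histone H2A genes in the set are near-identical copies whose signals cannot be separated. Of the 100 brightest probes, 41 had no gene name here, so the named top is a part of the bright probes. Their identity was not analysed here.

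The sorted cells carried the markers of CD4+ T cells. All 22 measured T cell identity genes were detected (100% against 45.7% of all genes), and 19 of them stood among the brightest 10% of detected genes. Cd3e, a signalling chain of the T cell receptor, read 36749 and 49031, a mean log2 signal of 15.37 ± 0.29 (SD, n = 2, unscaled). Its second probe read 1370 and 1996. Cd4, the co-receptor for class II molecules, read 17450 and 22895 (14.29 ± 0.28), with a second probe at 288 and 421. Cd3d read 82089 and 99112, and Thy1, a surface glycoprotein of mouse T cells, 69633 and 75497. Zbtb7b, the transcription factor ThPOK that fixes the CD4 lineage, read 711 and 1200. The constant regions of the receptor itself have no probe that could be named.

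Markers of other cells were detected in part. The shares were 35.7% of B cell markers, 38.1% of monocyte, macrophage and neutrophil markers and 33.3% of plasma cell markers, with 2 of 10 dendritic cell markers and 6 of 12 CD8 T and NK cell markers, against 45.7% of all genes. Of 14 B cell markers 5 were detected, all at or below 168: Cd74 read 168 and 167, H2-Ab1 147 and 102, Cd22 126 and 123, H2-Eb1 107 and 91.9, and Cd79b 43.7 and 51.8. Ms4a1 and Cd79a were well above background on neither array, and Pax5 on 1 array only. Of 21 monocyte, macrophage and neutrophil markers 8 were detected. Ly6c2, a surface protein that activated T cells also carry, read 69317 and 56228, Csf3r, the receptor for granulocyte colony-stimulating factor, 6166 and 12030, and Itgam 2580 and 3327. Csf1r, the receptor that macrophages depend on, was detected by both its probes, at 1230 and 932, and at 43.6 and 77.1. The neutrophil genes S100a9 (238 and 646), S100a8 (92.2 and 169), Elane (98.5 and 89.2) and Mpo (49.9 and 59.5) were also detected. Lyz2, Cd14, Adgre1 and Fcgr1 were on neither array, with Ngp, Ltf, Vcam1 and Mrc1: Lyz2 read 5.09 and 4.29, Cd14 4.62 and 4.02, Adgre1 6.41 and 4.42. Lyz1, Cd68, C1qa, C1qb and C1qc passed on 1 array only.

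Dendritic cell markers gave 2 of 10, and 4 of 10 on array 1 alone. Siglech, a plasmacytoid dendritic cell lectin, read 7552 and 13923 by the brightest probe, while its other probe was dim on both arrays (7.78 and 3.90), and Bst2, an interferon-induced tether, read 5247 and 3274. Clec9a (25.1 and 9.18) and Ccr9 (21.7 and 12.4) passed on array 1 only, and Itgax, Flt3, Zbtb46, Xcr1, Cd209a and Batf3 were on neither array. Of the CD8 T and NK cell markers 6 of 12 were detected: Nkg7 read 3368 and 4318 and Cd8b1 595 and 671, but Cd8a, which a CD8 T cell needs for its co-receptor, read 21.5 and 19.7 and passed on neither array. Globin transcripts were present and unequal: Hba-a1 read 127 and 612, Hba-a2 115 and 568, and Hbb-bt 33.5 and 123, while Alas2, Slc4a1 and Klf1 were on neither array. The α-globin genes are near-identical copies. Of 26 genes of non-blood tissues 6 were detected, led by Snap25 (1787 and 2221), whose other probe read 4.04 and 105, and Syp (566 and 460). What share of any of these signals came from other cells in the sort was not tested. In a bulk sample, fewer cells of a type and less RNA per cell cannot be told apart. Of sex-linked transcripts, Eif2s3y (389 and 452), Kdm5d, Uty and Ddx3y were detected, and Xist was not (8.37 and 4.15).

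Of 13 helper lineage factors 7 were detected, or 53.8%, a share near the 50.2% of all protein-coding genes. The 7 are factors of several programmes. Gata3 read 2686 and 4383 (mean log2 11.74 ± 0.50, SD, n = 2). Tbx21 read 1773 and 2483 (11.04 ± 0.34), and Bcl6 1305 and 2943 (10.94 ± 0.83). The arrays differed more for Bcl6 than for either of the others, by 0.74 after scaling. Runx3, a partner of T-bet, read 795 and 1172, and Maf, a factor of interleukin production in several helper types, 659 and 979. Eomes, the T-box relative of T-bet, was detected at 69.4 and 83.6 by 1 of 2 probes, and Ahr, a ligand-activated factor of the type 17 programme, at 33.2 and 62.8.

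Other lineage factors did not reach the call. Foxp3 read 16.0 and 21.9 and passed on array 2 only. Prdm1, which encodes Blimp-1, a repressor opposed to Bcl6, read 14.0 and 25.5 and also passed on array 2 only. Spi1, Hlx and Ascl2 were on neither array, at 17.2 or less.

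**Figure D2:**
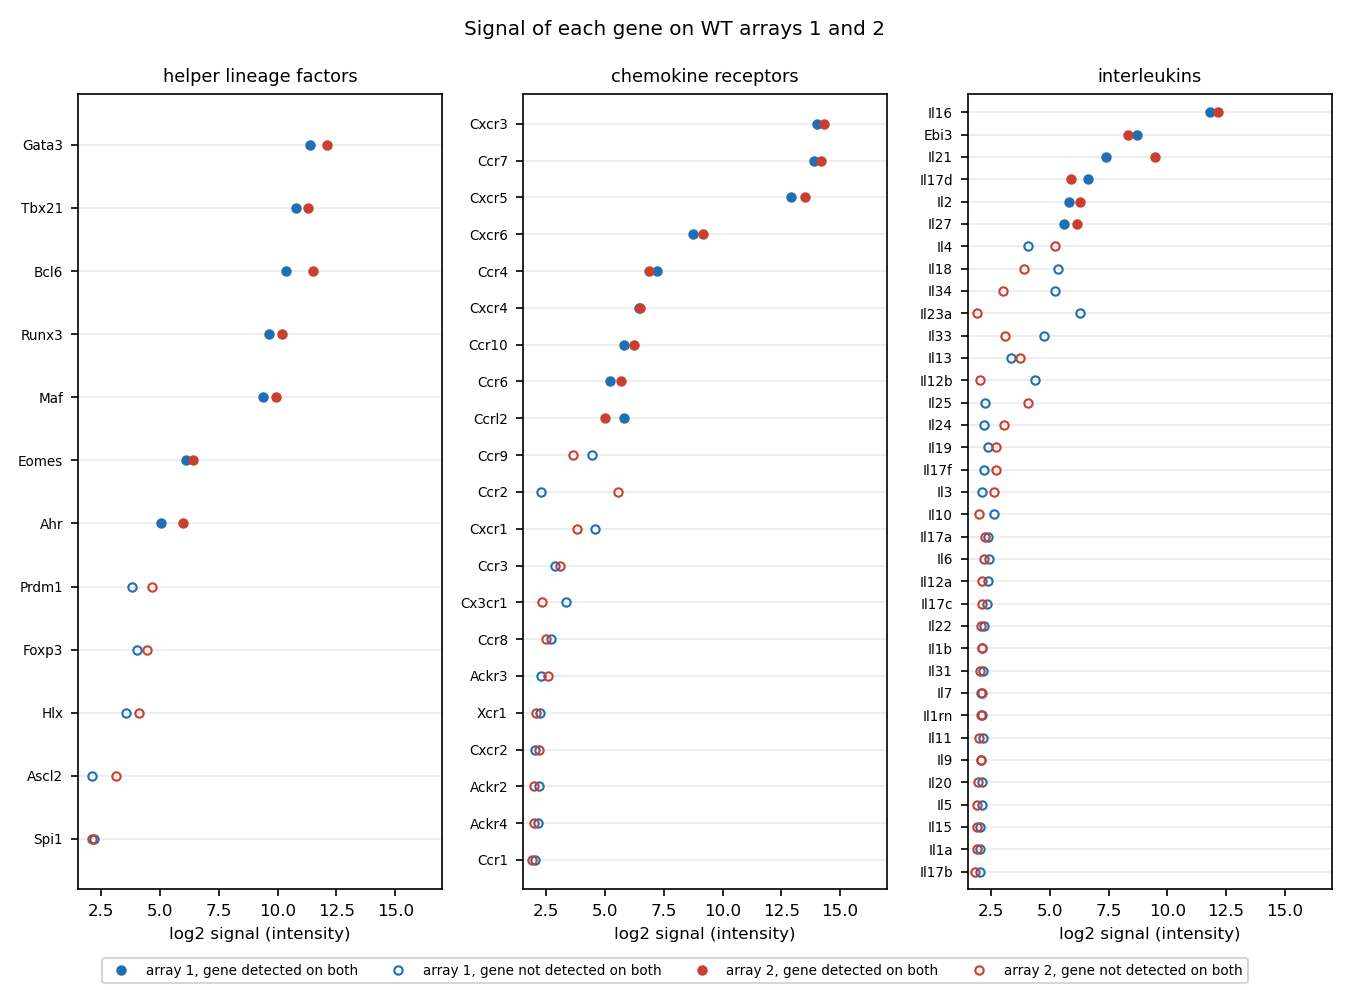
Log2 signal (intensity, horizontal) of helper lineage factors, chemokine receptors and interleukins (rows; a few genes are not shown) on WT array 1 (blue) and WT array 2 (red); filled points are genes well above background on both arrays. Filled points mark 7 lineage factors, 9 chemokine receptors and 6 interleukins.

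Transcription factor families differed in how much of the family was on. All 9 Irf factors were detected, with Irf7 at 12875 and 7085, Irf3 at 6195 and 8801 and Irf5, near the limit, at 30.8 and 44.1. Irf4, the factor induced by T cell receptor signalling that the other groups of the series lack by label, read 673 and 1068, and 73.6 and 80.3 by its second probe. All 7 Stat factors, which carry cytokine signals to the nucleus, were detected, with Stat3 at 5683 and 6866 and Stat4, which carries the interleukin-12 signal, at 2439 and 3448. So were the 4 Jak kinases that activate them, with Jak1 at 10028 and 14799. All 5 Ikaros factors, 5 NFAT factors and 5 NF-κB subunits were detected. Rela, the main activating NF-κB subunit, read 7048 and 11352, and Nfatc2 2936 and 5029. Rel (32.2 and 44.4) and Ikzf4 (40.7 and 98.6) were close to the limit, and other members were dim. With both arrays required to exceed the 99th percentile of their negative controls, 2 Ikaros factors, 3 NFAT factors and 2 NF-κB subunits passed. Under that rule 6 Irf factors, 2 Jak kinases and all 7 Stat factors passed. When every probe of a gene had to pass, 3 Ikaros and 2 NFAT factors remained.

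Other families were on in part. Of 17 T-box factors, 3 were detected, Tbx21, Mga and Eomes (5 on array 1 alone). Tbx6, Tbx10 and Tbx22 passed on 1 array, and Tbx1, Tbx2, Tbx3, Tbx4, Tbx5, Tbx15, Tbx18, Tbx19, Tbx20, Tbr1 and T on neither. Of the Gata factors Gata3, Gata5 (302 and 169) and Gata1 (46.3 and 35) were detected, and Gata2, Gata4 and Gata6 were not. Of the 3 Runx genes and Cbfb, their shared partner, only Runx2 was missing. Of 10 AP-1 factors 7 were detected: Jund read 14386 and 13868, Junb 6723 and 7418, and Batf, a partner of Irf4 on DNA, 5229 and 5581 (mean log2 12.40 ± 0.07, SD, n = 2). Batf2 passed on 1 array, and Fosl1 and Batf3 on neither.

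Factors of resting and memory-like T cells were among the detected ones. Lef1 read 9574 and 12668 and Tcf7, which encodes TCF-1, 3815 and 4219 (11.97 ± 0.10), while the relative Tcf7l1 was on neither array. Klf2, which drives genes of lymph node homing and egress, read 11610 and 19055, and Foxo1, its activator, 5283 and 7657. Id3, an inhibitor of E proteins, read 4352 and 8691. Of 17 Klf factors 8 were detected, 1 passed on a single array (Klf4), and Klf1, Klf5, Klf8, Klf11, Klf12, Klf14, Klf15 and Klf17 passed on neither. Tox, a factor of chronically stimulated T cells, read 1051 and 1634, with Tox3 on neither array.

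Genes known as targets of receptor signalling were also detected. Whether receptor signalling set their signals in these cells was not tested. Nr4a1, an immediate target of the receptor, read 2299 and 5307, Egr2 1227 and 2035 and Egr1 1027 and 2165. Each of these was brighter on array 2, by 0.78, 0.30 and 0.64 after scaling. Nr4a2 was on neither array. Myc, which drives growth metabolism, read 252 and 394, while Mycn and Mycl were on neither. Its partner Max read 3755 and 5200. Of 8 Socs inhibitors 7 were detected, led by Socs3 (5593 and 6103), and Socs2 was not.

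The receptor pathway was detected nearly whole, with 26 of 30 genes (86.7%). Lck, the kinase bound to CD4, read 61988 and 70497, Zap70, the kinase that docks on the CD3 chains, 24868 and 33346, and Vav1, an exchange factor, 8056 and 13124. Lat, the adaptor that gathers the signalling complex, read 21167 and 14641 and was the identity gene dimmest on array 2 relative to array 1, with a scaled difference of -0.96. The missing 4 were Syk, Btk, Blnk and Vav2. Syk, Btk and Blnk make up the matching pathway of B cells. Their highest signal was 21.1. Of the phospholipases, Plcg1, the T cell form, read 62.8 and 97.8, and Plcg2 22.6 and 36.0.

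Costimulatory receptors were detected in 18 of 20 cases. Icos, which supports follicular helper cells, read 9995 and 14552 (mean log2 13.56 ± 0.38, SD, n = 2) and Cd28, the main partner of the antigen signal, 8889 and 14007. Tnfrsf18 (GITR) read 3277 and 3308, and Tnfrsf4 (OX40) 1193 and 2114. Cd40, carried by antigen-presenting cells, was on neither array (6.29 and 8.46), and its ligand Cd40lg passed on array 2 only (8.85 and 31.7). Tnfrsf8 (CD30) was listed at 4.97 on array 1 and 1961 on array 2 and so passed on 1 array.

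Co-inhibitory receptors and ligands were detected in 17 of 21 cases. Vsir (VISTA) read 3515 and 4584, Pdcd1 (PD-1) 2930 and 3309 (11.60 ± 0.12) and Btla 2587 and 3146. Ctla4 read 210 and 202 (7.69 ± 0.04), a scaled difference of -0.49. Lag3 read 196 and 619 (8.44 ± 1.17) and Tigit 195 and 349, both brighter on array 2, Lag3 by 1.23 after scaling. Havcr2, which encodes TIM-3, was on neither array (5.07 and 4.66), as were Klrg1 (4.91 and 4.20) and Cd80, and Cd160 passed on array 2 only. The PD-1 ligands Cd274 (229 and 300) and Pdcd1lg2 (187 and 356) were detected too. When both arrays had to exceed the 99th percentile of their negative controls, 5 of the 21 passed.

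Of 43 cytokine receptor genes 25 were detected (58.1%). The shared γ chain Il2rg read 21449 and 23431 and the β chain Il2rb of the interleukin-2 and interleukin-15 receptors 4930 and 5845. The α chain Il2ra, which makes the interleukin-2 receptor high in affinity, read 12.6 and 40.3 and passed on array 2 only. Il7r, the survival receptor of resting T cells, read 2155 and 2483 (11.18 ± 0.14). Il6ra (4718 and 8940) and its signalling partner Il6st (1555 and 2470), Il21r (3773 and 4219) and Il27ra (5301 and 7481) were all detected. Of the interleukin-12 receptor, Il12rb1 read 1130 and 1274 while Il12rb2 passed on array 1 only (23.3 and 3.86). Il23r, Il1rl1, Il17rb and Il5ra, receptors of other helper types, were on neither array. So were Il17rc, Csf2rb, Lifr, Osmr, Il13ra1 and Il13ra2. The list also held Il9r, Il11ra1, Il22ra1, Il1r1, Il1r2 and Il18rap on 1 array.

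Of 22 chemokine receptors 9 were detected, and 3 stood among the brightest 10% of detected genes. Cxcr3, the receptor for interferon-induced chemokines, read 16780 and 20371 (14.17 ± 0.20). Ccr7, which guides cells to T cell zones, read 15263 and 18584 (14.04 ± 0.20), and Cxcr5, which guides them to B cell follicles, 7774 and 11551 (13.21 ± 0.40). On the same arrays Cxcr6 read 435 and 581, and Ccr4, Cxcr4, Ccr10, Ccr6 and Ccrl2 read 150 or less. Ccr2 and Ccr9 passed on 1 array. Those on neither array included Ccr1, a receptor for inflammatory chemokines (4.04 and 3.7), Ccr3, Ccr8, Cxcr1, Cxcr2, Cx3cr1, Xcr1, Ackr2, Ackr3 and Ackr4.

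Of lipid and egress receptors 8 of 17 were detected (47.1%), and of adhesion and homing molecules 16 of 27 (59.3%). S1pr1, through which T cells leave lymphoid tissue, read 3695 and 4247, while S1pr3 and S1pr5 were on neither array. Cd44, the adhesion receptor of antigen-experienced cells, read 1207 and 1360 (10.32 ± 0.12). Itgb7 read 36337 and 41008 and Itga4, its partner in gut homing, 2238 and 5621. Itgam, the α chain of a phagocyte integrin, read 2580 and 3327 by 1 probe and was dim by the other. Itgae, Itga1 and Itga2, found on tissue-resident T cells, were on neither array, with Itgax, Itgad, Itga3, Itga5, Itgb5, Itgb6 and Itgb8.

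Cytokine genes were the least detected role, with 37 of 122 (30.3% against 45.7% of all genes). Of 35 interleukins 6 were detected, and 10 on array 1 alone. Il16 read 3599 and 4496 by 1 of 2 probes. Il21, a follicular helper cytokine, read 166 and 705 (8.42 ± 1.48), with a second probe silent at 6.28 and 4.34. Il2, the T cell growth factor, read 55.5 and 78.7 (6.05 ± 0.36), near the limit. Ebi3, a subunit shared by interleukin-27 and interleukin-35, read 413 and 318, and Il17d and Il27 were below 100 on both arrays. Il4, the type 2 cytokine, read 16.8 and 37.2 and passed on array 2 only. Il18, Il23a, Il33 and Il34 passed on array 1 only.

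The other 24 interleukin genes were on neither array. They include Il10 (6.22 and 4.0), Il17a (5.19 and 4.73), Il17f, Il22, Il5, Il9 and Il13 (10.1 and 13.4), the products of other helper types, and Il6, Il1a, Il1b, Il12a, Il12b and Il15, products of myeloid cells. The rest were Il3, Il7, Il11, Il17b, Il17c, Il19, Il20, Il24, Il25, Il31 and Il1rn. The protocol names no restimulation of the cells before RNA was extracted.

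Of 32 interferons, TNF family members and growth factors 15 were detected. Ltb, the membrane lymphotoxin subunit, read 39647 and 49426, and Mif 13097 and 17541. Tnf read 389 and 616 (8.93 ± 0.47). Ifng, the type 1 cytokine, read 214 and 523 (8.39 ± 0.91), a scaled difference of 0.86. Tgfb1 read 696 and 1100. Csf2, Csf3, Areg and Tnfsf4 were on neither array. Nor were Ifnb1, Ifna1, Ifna2, Ifna4, Tnfsf12, Tnfsf13b, Tnfsf15, Tnfsf18, Cd70 and Tgfb2, and Csf1 and Lif passed on array 2 only.

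Of 34 chemokines 4 were detected (11.8%), and 7 on array 1 alone. Ccl5, a chemokine of activated T cells, read 4072 and 3991, and Ccl25, Cxcl16 and Ccl4 read under 100. Ccl1, Ccl6, Cxcl10 and Xcl1 passed on 1 array, and 26 others on neither, among them Ccl2, Ccl3, Ccl17, Ccl22, Cxcl9, Cxcl12 and Cxcl13. Of granule and killer receptor genes 13 of 22 were detected. Srgn, the proteoglycan core of granules, read 22568 and 27408, Gzmb 347 and 373 (8.49 ± 0.07), Prf1 (perforin) 201 and 187 and Gzma 361 and 160. Gzmk passed on array 1 only, and Gzmd, Gzme, Gzmf, Gzmg, Klrc1, Klrk1 and Klrg1 on neither.

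**Figure D3:**
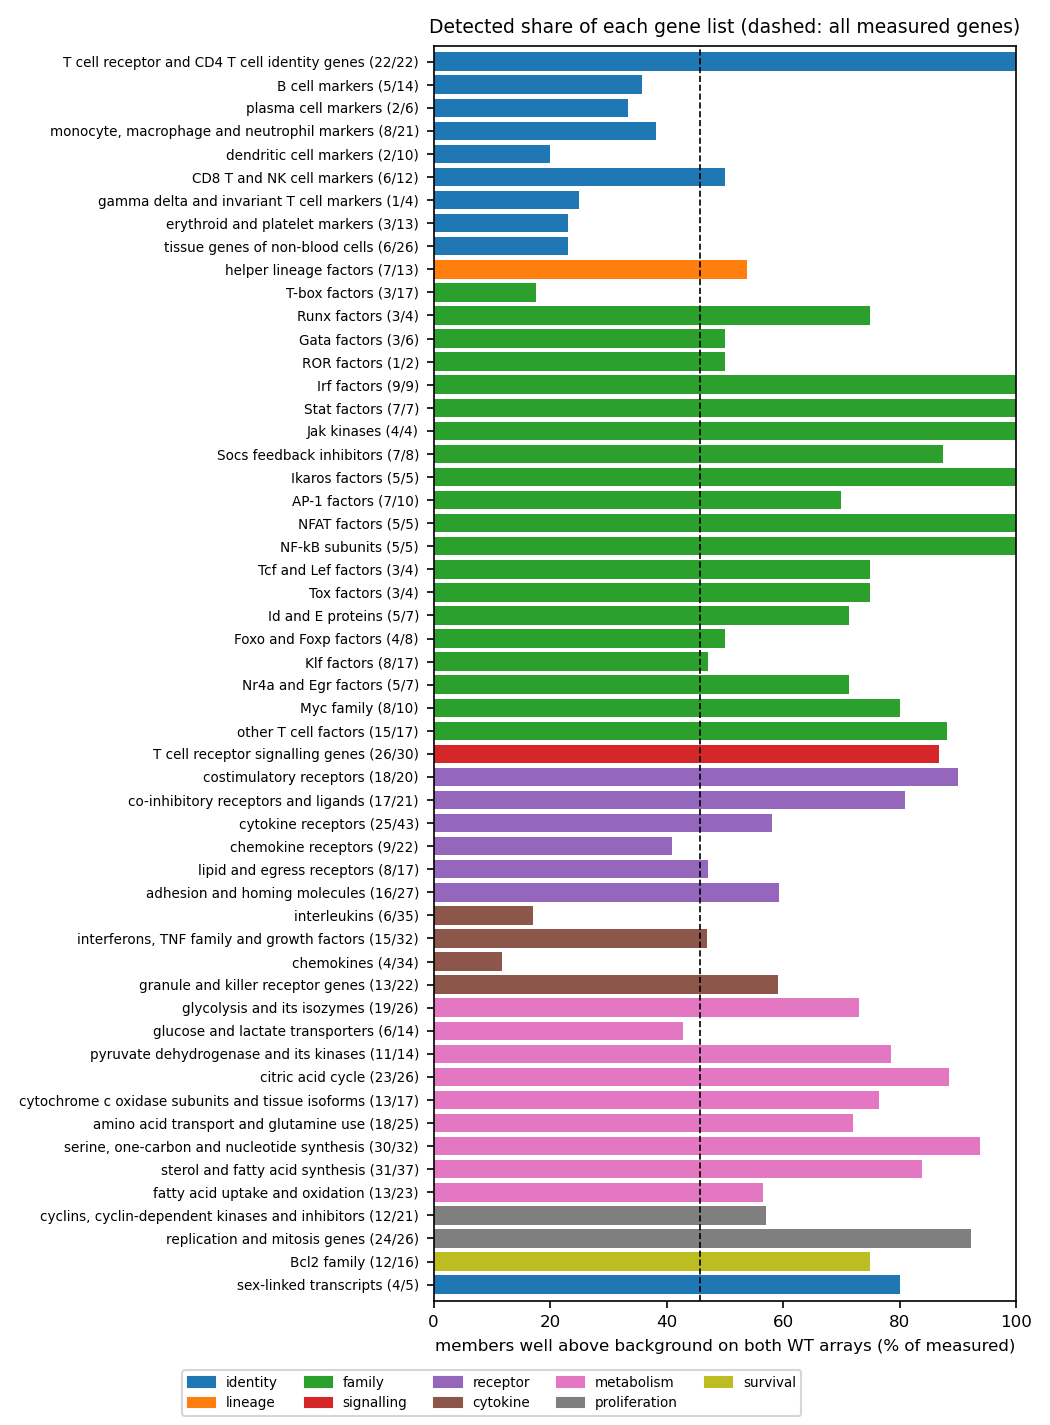
Share of each gene list well above background on both WT arrays (% of measured members, horizontal; detected/measured beside each name), coloured by role, with the 45.7% of all measured genes as a dashed line. T cell identity genes reach 100%, while interleukins (17.1%) and chemokines (11.8%) lie far to the left of the line.

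Metabolic genes were detected in 164 of 214 cases (76.6%), and several isozymes of other tissues were among those that did not pass. Of 26 glycolytic genes 19 were detected. Ldha, the lactate dehydrogenase subunit of glycolytic cells, read 65269 and 69832 (16.04 ± 0.07), and Ldhb 766 and 1005, while the testis form Ldhc was on neither array. Aldoa read 48112 and 57062 and Aldoc 369 and 327. Pgk1 read 26358 and 33676 and the testis form Pgk2 was on neither array. Pkm, whose splice forms were not told apart here, read 16338 and 22418, while Pklr, the form of liver and red cells, read 4.80 and 5.52. Eno1 read 15771 and 16760, and the neuronal Eno2 passed on neither array. The muscle forms Eno3 (131 and 252) and Pgam2 (23.2 and 31.2) were detected. Hk1 read 4873 and 7070, and Gapdhs of sperm passed on neither array. The spot for Hk2 was marked as an outlier on array 2, where it read 157077 against 15.6 on array 1, and was left out, so no level is given for Hk2.

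Of 14 glucose and lactate transporters 6 were detected. Slc2a1 (GLUT1) read 589 and 649 (9.27 ± 0.10) and Slc2a3 (GLUT3) 452 and 517. Slc16a1 and Slc16a3, which move lactate, read 416 and 539, and 130 and 193. Slc2a2 of liver and Slc2a4 of muscle and fat were on neither array, with Slc2a5, Slc2a6, Slc2a10, Slc16a7 and Slc16a8. Pdk1, a kinase that closes the entry of pyruvate to mitochondria, read 1578 and 2225, while Pdk2 passed on array 2 only and Pdk4 on neither. Pdk3 was left out for a marked spot on array 1.

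The citric acid cycle was detected in 23 of 26 genes. Mdh2 read 25046 and 35128, Cs (citrate synthase) 8991 and 12366, Idh2 2464 and 3487, and Acly, which exports citrate carbon to lipids, 4354 and 7230. The 3 missing genes were Idh1, Me1 and Me3. Idh1 read 5.04 and 10.4 by the brighter of its 2 probes. Me2, the NAD-linked malic enzyme, was detected at 411 and 590. Of 17 cytochrome c oxidase genes 13 were detected: Cox6a1 read 66185 and 80022, Cox8a 48537 and 60940 and Cox4i1 43427 and 44837. Their muscle, testis or other tissue forms Cox6a2, Cox7b2, Cox8b and Cox8c were on neither array, and Cox4i2, Cox6b2 and Cox7a1 read under 100. All 13 detected genes of this list were dimmer on array 2 after scaling, with a median of -0.29.

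**Figure D4:**
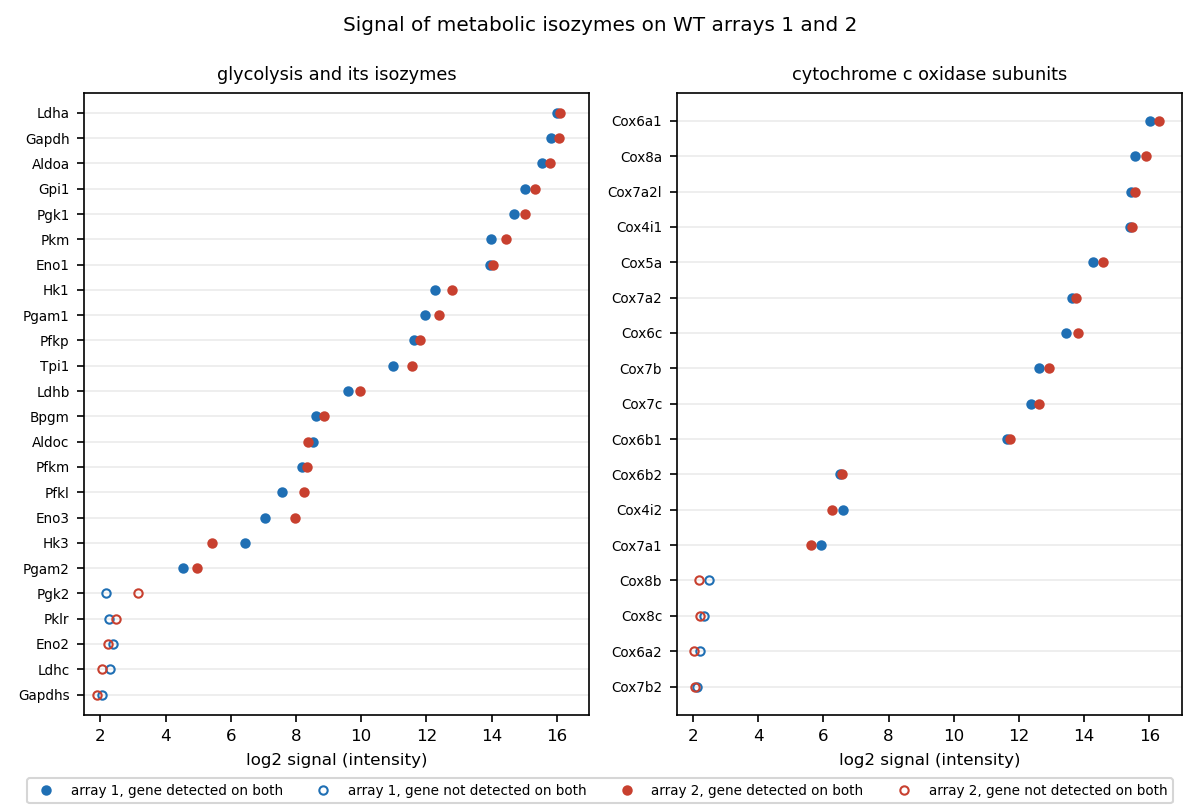
Log2 signal (intensity, horizontal) of glycolytic genes and cytochrome c oxidase subunits (rows; a few genes are not shown) on WT array 1 (blue) and WT array 2 (red); filled points are genes well above background on both arrays. The filled genes number 19 and 13, and the open ones are mainly isozymes of other tissues.

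Genes of amino acid use were detected in 18 of 25 cases. Slc38a1 and Slc1a5, glutamine transporters, read 3570 and 5909, and 900 and 1341. Slc3a2, the heavy chain shared by several transporters, read 2594 and 3279, and Slc7a5, its light chain for leucine, 43.9 and 56.4. Genes on neither array included Slc7a2, Slc7a3, Slc7a8, Slc7a11, Slc38a4 and Slc1a3. Serine, one-carbon and nucleotide synthesis was detected in 30 of 32 cases. Phgdh, the entry to serine synthesis, read 4939 and 5825, and Impdh2, the rate-limiting enzyme of guanine nucleotides, 3025 and 5047. Mthfd2, the mitochondrial folate enzyme of growing cells, read 752 and 1098.

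Of 37 genes of sterol and fatty acid synthesis 31 were detected. Fasn read 3760 and 7199, Srebf1 2789 and 4126, Scd2 1401 and 2367 and Hmgcs1 1144 and 1477. The liver desaturase Scd1 was on neither array, with Idi2, Elovl2, Elovl3 and Elovl4. Fatty acid uptake and oxidation gave 13 of 23. Cpt1a, the gate of mitochondrial import, read 1900 and 1537, and its muscle and brain forms Cpt1b and Cpt1c were on neither array. Of the binding proteins Fabp5 was detected (399 and 540) and Fabp1, Fabp2, Fabp3, Fabp4 and Fabp7 were not. Cd36, Acsl3 and Acsl6 were on neither array either.

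Cell division genes were on at day 6. Of 26 replication and mitosis genes 24 were detected (92.3%), the exceptions being E2f4 and E2f5. Mcm6, a subunit of the replicative helicase, read 5918 and 11746, Pcna, the polymerase clamp, 4849 and 7669, Top2a 518 and 1299 and Mki67, the Ki-67 antigen of cycling cells, 278 and 1433 (9.30 ± 1.67). Of the D cyclins Ccnd2 read 17337 and 23578 and Ccnd3 5926 and 7593, but Ccnd1 was on neither array (4.42 and 3.83). Of their kinases Cdk4 read 4445 and 6241, but Cdk6 was not detected (4.92 and 4.20). Ccna1, Ccnb3, Ccne2, Cdkn2a and Cdkn2b were on neither array. Cdkn1b, the inhibitor p27, read 2243 and 2682, and Cdkn1a (p21) and Cdkn1c passed on array 2 only.

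Of 16 Bcl2 family genes 12 were detected. The protective members Bcl2a1d (6500 and 9366) and Mcl1 (7113 and 7213) were detected, and Bcl2 read 299 and 322. Bcl2a1d has near-identical copies. Bcl2l11, which encodes the killer protein BIM, read 1447 and 2434, Bax 2005 and 2926 and Bak1 2988 and 3042. Bcl2l2, Bok, Bik and Hrk were on neither array.

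Genes of dividing cells were brighter on array 2 than on array 1. With 1 array on each side there is no test, and a gene is counted as different past a log2 difference of 1 (2-fold) after scaling. That was reached by 134 of 10437 genes (1.28%) brighter on array 2 and by 230 (2.2%) brighter on array 1. Of the 24 detected replication and mitosis genes 21 were brighter on array 2, with a median of 0.60, against 49.8% of all detected genes and a median of -0.002. Past a log2 difference of 1 stood 4 of the 24: Cenpe, a kinesin of the kinetochore (103 and 730), Mki67, E2f8 (41.2 and 159) and Bub1 (37.0 and 101). Cdk1, the mitotic kinase, read 48.7 and 157, and 9 of the 12 detected cyclin and kinase genes were brighter on array 2 (median 0.22). The T cell identity genes were balanced, with 10 of 22 brighter on array 2 and a median of -0.01. The 3 globin genes had a median of 1.83, and 9 of 31 sterol and fatty acid synthesis genes were brighter on array 2 (median -0.18).

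**Figure D5:**
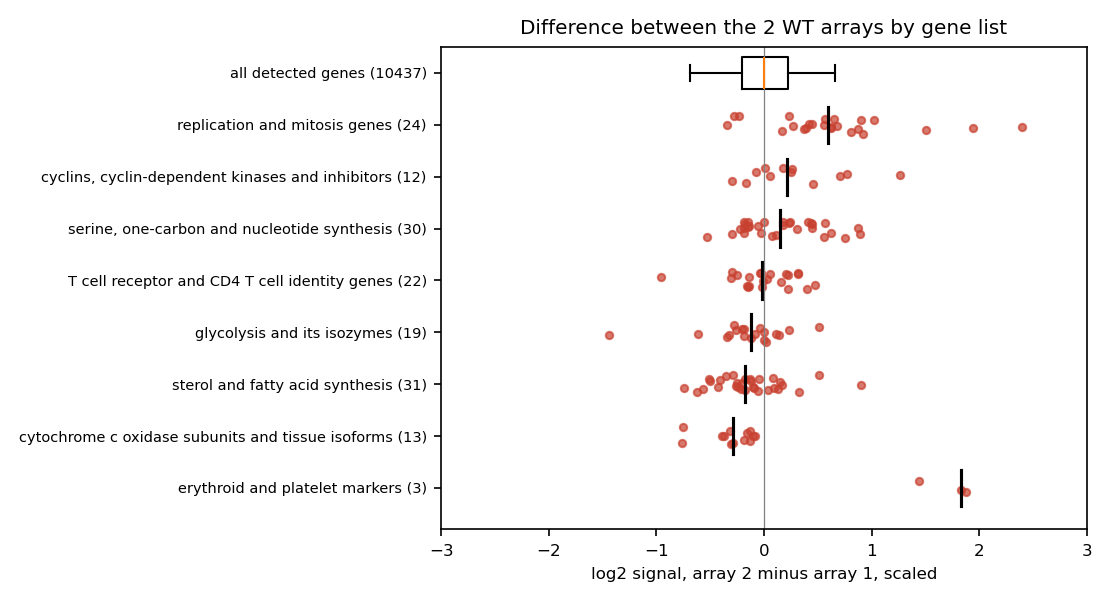
Scaled log2 signal of array 2 minus array 1 (horizontal) for the detected members of 8 gene lists (points, with the list's median as a bar) and for all 10437 detected genes (box from the 25th to the 75th percentile, whiskers from the 5th to the 95th). Replication and mitosis genes centre at 0.60 and T cell identity genes at -0.01.

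Each of the largest single differences rested on a probe with 1 spot on each array. Clip1, which encodes a microtubule-end protein, read 44146 on array 1 and 97.9 on array 2 by its brightest probe, and 411 and 892 by the other. Zwint, a kinetochore gene, read 67902 and 881, while its other 2 probes read 2289 and 3521, and 229 and 364. Those 2 were brighter on array 2 by somewhat more than the 1.35-fold offset. Slc35e4 read 59196 and 133, and Spag5, Krba1, Gm15408, Tapbpl, Tbce, Dzip1 and Ctse completed the 10 most in favour of array 1. In the other direction 2900076A07Rik read 28.7 and 2691 and Ttc14 27.6 and 1785, followed by Ccdc22, Gm10416, Nop14, Galnt11, Nefh, Cenpf (24.9 and 187), Cenpe and Rngtt. Many of these spots lie near each other on the slide. In a block of 369 spots, chosen after the values were seen, 43 (11.7%) were more than 8-fold brighter on array 1, against 1.18% elsewhere. In a block of 80 spots chosen the same way, 9 (11.2%) were that much brighter on array 2, against 0.172% elsewhere. Tnfrsf8 lies in that second block.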

How the data were processed

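Values come from single-colour Agilent mouse arrays, for which, per the labels' protocols, the authors amplified 0.5 µg of RNA into Cy3-labelled cRNA. Feature Extraction 11.0.1.1 (protocol GE1_1100_Jul11, build mm9) is named per the file headers, and 9.1 in the submitters' processing notes. The deposited processed signal is an intensity from which the authors' software removed background, with no scaling across arrays. The deposited value table equals it divided by 1 number per array, within a log2 tolerance of 0.01.

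Control spots and marked outliers were dropped, leaving 56302 probes, of which RefSeq accessions named 32811 (58.3%). Log2 signals were averaged per probe and then across both arrays, and each gene took its brightest probe, a detected one where it had any. For array differences the 75th percentile of probes detected on both was subtracted. The 54 lists hold 872 genes, of which 850 were measured. Members and lists were chosen with earlier results of these data known. The text names bright genes, the key T cell genes, up to 8 bright members of each list, members on 1 or neither array and the 10 largest array differences each way. Other members were named after their values were seen. A few genes that the rule names are left out of the text and figures, though counts include them. Start sequences and motifs come from RefSeq promoters (GRCm38.p6). Collapsing and ranking were tested on simulated data. Python 3.11.15, pandas 2.3.3, R 4.3.3 and limma 3.58.1 (normexp) were used. The number of arrays, 2, limits the precision.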

Additional observations from a re-analysis of the deposited data

How the results depend on the processing

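The count of detected genes (10437) was 13030 with the weaker call of a positive and significant signal, 8533 when every probe of a gene had to pass, and 10983 to 11317 when 1 array was left out. It moved to 4909 when both arrays had to exceed the 99th percentile of their negative controls, 489 on array 1 and 17.2 on array 2 in the scanner's column of background-subtracted signal, which differs from the processed signal. Under that rule 301 list members passed, against 526, and 37 of 54 lists moved by more than 1.5 times. Co-inhibitory receptors and ligands went from 17 to 5, granule genes from 13 to 3, B cell markers from 5 to 0 and interleukins from 6 to 1, while T cell identity genes stayed at 22 and Stat factors at 7. With the other calls between 1 and 10 lists moved. Plasma cell markers went from 2 to 4 without array 1. Left out in turn, the arrays gave 553 to 558 list members. Of the 100 brightest genes 79 were kept with the mean over probes, 98 with normexp and quantile normalisation, 100 with the deposited value table, and 96 to 98 with 1 array left out. Normexp was run on the median spot signal because the scanner columns used here hold no mean signal. Genes past a 2-fold difference between the arrays numbered 364, or 365 when scaled on all probes, 103 with normexp (32 brighter on array 2 and 71 on array 1) and 2634 over all genes. The median excess of replication and mitosis genes on array 2 was 0.53 with normexp, again with 21 of 24 brighter. For T cell identity genes normexp moved the count from 10 to 16 of 22. Dim calls are limited by signal over background. The negative control rule was strictest on array 1, where its threshold rests on the few brightest of 308 control spots. Those spots reached a processed signal of 47300 on array 1 and 813 on array 2, while their medians were close, at 4.53 and 4.07. Losses under that rule thus depend on a few control spots. No paired analysis was possible because no groups are compared here.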
